A study of Mus musculus with 60 samples.

Results

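Within one culture of intrahepatic cholangiocyte organoids, the largest single organoids were compared with smaller ones. The culture is Set 4 of the study, grown from the liver of 1 C57BL/6N mouse that the labels place at 3 to 4 months of age. Organoids with a projected area of at least 0.65 mm2 formed the largest class (organoids 1, 2, 11, 13 and 15), and those of at most 0.55 mm2 the smaller class (organoids 5, 6, 7, 9 and 14). These 10 libraries are part of 15 single organoids of Set 4, of 42 single organoids in the series and of 60 samples in all. Areas were measured by the study from 2D images.

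The study asked how far organoids differ between animals and within a culture. All 10 organoids were untreated and at passage 4. They had been started in Matrigel domes, fragmented, and then kept in a shaking suspension with 10% Matrigel in HepatiCult medium. Single non-apoptotic organoids were picked by hand, and the amount of mRNA entering reverse transcription was set by a qPCR of Actb. All 10 came from the same mouse and culture, so the error given here is the spread among organoids of 1 culture, and P-values do not extend to other animals. The study picked from different wells of a culture. The labels do not give the well of each organoid, so the tests treat organoids as independent and differences between wells could not be examined.

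Intrahepatic cholangiocyte organoids are hollow spheres of a single-layered biliary epithelium. Cells of this layer proliferate in a Wnt- and growth factor-rich medium, secrete fluid and mucus-type proteins into the lumen, and can respond to injury with chemokines and antimicrobial proteins. During G2 and mitosis, a set of genes for spindle, kinetochore and chromosome proteins is transcribed together, with Mki67 (the Ki67 antigen) as its most used marker. Many promoters of this set hold a CCAAT box, bound by the factor NF-Y, and a cell cycle genes homology region with the core TTTGAA.

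Promoters of 3 genes of the G2 and mitosis set are printed because this list held the most called genes of all lists examined. They are the called genes of the set with the smallest P-values for which RefSeq sequence was at hand. Each runs from 250 bases before to 50 bases after the annotated start (RefSeq, GRCm38.p6), and capitals mark TTTGAA and CCAAT on either strand (TTCAAA and ATTGG when read on the printed strand), which do not overlap each other. Mki67 lies at chr7:135716330-135716629 (minus strand), Cenpe at chr3:135212313-135212612 (plus strand) and Hmmr at chr11:40733388-40733687 (minus strand).
Mki67: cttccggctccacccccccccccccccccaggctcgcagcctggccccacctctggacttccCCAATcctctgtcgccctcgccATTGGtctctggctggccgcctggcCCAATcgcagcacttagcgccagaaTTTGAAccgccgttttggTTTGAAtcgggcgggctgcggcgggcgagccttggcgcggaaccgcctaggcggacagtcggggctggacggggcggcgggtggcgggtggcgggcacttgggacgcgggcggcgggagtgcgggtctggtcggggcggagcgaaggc
Cenpe: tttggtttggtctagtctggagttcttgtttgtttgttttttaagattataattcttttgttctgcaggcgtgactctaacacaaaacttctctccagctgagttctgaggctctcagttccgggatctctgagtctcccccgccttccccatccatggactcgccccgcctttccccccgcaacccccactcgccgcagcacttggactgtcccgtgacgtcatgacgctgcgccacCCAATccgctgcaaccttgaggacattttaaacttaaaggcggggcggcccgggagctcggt
Hmmr: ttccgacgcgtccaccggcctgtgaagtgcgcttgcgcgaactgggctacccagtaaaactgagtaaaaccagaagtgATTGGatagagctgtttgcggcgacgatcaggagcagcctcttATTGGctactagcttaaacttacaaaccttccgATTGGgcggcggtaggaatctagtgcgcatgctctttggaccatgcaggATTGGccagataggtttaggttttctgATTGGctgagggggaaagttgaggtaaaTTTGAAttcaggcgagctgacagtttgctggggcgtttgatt

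Mki67 carried 2 TTTGAA and 3 CCAAT matches, Hmmr 1 and 5, and Cenpe 0 and 1. Of the 52 G2 and mitosis genes, 46 had a RefSeq promoter, and 32 of these (69.6%) held TTTGAA and 35 (76.1%) CCAAT. Over the 8,656 tested genes with a promoter the shares were 12% and 39.4%, and over all 27,025 genes with one they were 18.1% and 37.9%. Among the 19 called genes of the set with a promoter, 14 (73.7%) held TTTGAA and 13 (68.4%) CCAAT. These matches describe letters in a window, and binding was not measured.

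Markers of cholangiocytes were present in every library. Without TMM scaling, Krt19 ran from 361 to 601 CPM, Spp1 from 1443 to 2483 CPM and Epcam from 375 to 874 CPM over the 10 organoids, and none of 7 cholangiocyte markers was at 0 in any library. Of the hepatocyte markers, Alb reached at most 5.67 CPM and Cps1 was at 0 in all 10 libraries, while Ttr, the transthyretin gene, lay between 487 and 2459 CPM. Summed macrophage markers reached at most 7.10 CPM in the largest and 4.39 CPM in the smaller organoids, endothelial markers 28.2 and 27.6 CPM, and mesenchymal and lymphocyte markers at most 2.20 CPM in any organoid.

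Total counts as deposited, after a down-sampling of libraries by the study to an extent not stated, were not even between the classes. They stand for depth here. The largest organoids 1, 2, 11, 13 and 15 had 6,800,894, 2,205,212, 1,831,743, 7,383,116 and 5,945,252 counts, and the smaller organoids 5, 6, 7, 9 and 14 had 2,611,449, 1,822,224, 1,059,002, 2,642,087 and 2,864,409 counts. The 3 deepest libraries were all of the largest class, whereas largest organoids 2 and 11 lay within the range of the smaller class. Totals averaged 4,833,240 ± 2,623,240 against 2,199,830 ± 750,127 counts (SD, n = 5 each, exact permutation P = 0.103, adjusted over 8 measures 0.365, smallest possible P 0.00794). Depth is therefore given beside the results, and depth and size class cannot be fully told apart in these libraries.

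Many genes of G2 and mitosis were lower in the largest organoids. Of 12,215 genes tested, edgeR called 541 (4.43%) differentially expressed at an adj. P-value threshold of 0.05. The largest organoids were lower for 410 of these (3.36% of all tested) and higher for 131 (1.07%). At an unadjusted P-value of 0.05 in edgeR, 3,311 of the 12,215 passed. Over the same genes limma-voom called 724 and DESeq2 1,374, in either direction. Without largest organoid 13 or without smaller organoid 7 no gene was called in edgeR (2,721 and 2,526 passed at an unadjusted P-value of 0.05). All 541 kept their direction there, but they were selected with the same organoids, so this was close to fixed in advance. Of the 52 genes of the G2 and mitosis list, 23 (44.2%) were lower and none was higher (29 passed at an unadjusted P-value of 0.05, and limma-voom called 24 and DESeq2 26), and 46 of 52 had a log2 fold-change (log2FC, largest minus smaller) below 0. The median log2FC of the list was -0.61, beside 0.01 over all genes. No overlap between the 5 largest and the 5 smaller organoids was seen for 21 of the 52, all lower in the largest, where 3.85% of all genes were lower without overlap. In RNA of whole organoids, fewer cells in a phase and less RNA per cell cannot be told apart.

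Mki67 (ENSMUSG00000031004, chr7:135689784-135716361, minus strand, a proliferation marker that coats mitotic chromosomes) had the smallest P-value of the list. It measured 192, 211, 211, 142 and 135 CPM in the largest organoids and 409.8, 371, 394, 310.5 and 383 CPM in the smaller ones, in the order of organoids given above for depth, after TMM scaling. Every smaller organoid exceeded every largest one. Largest organoids 2 and 11, within the depth range of the smaller class, were the highest of their class. A gene ranked first by P-value in these same organoids is likely to lack overlap, so this is no separate support. Means were 178 ± 37.3 against 374 ± 38.1 CPM (mean ± SD, n = 5 each), a 2.10-fold difference (log2FC -1.07, SE 0.16, adj. P-value 0.018, edgeR).

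Dlgap5, a microtubule-binding protein of the mitotic spindle, measured 14.6, 15.7, 16.5, 11.3 and 12.5 CPM in the largest organoids and 28.5, 31.2, 40.8, 23.9 and 34.3 CPM in the smaller ones. Cdca2, which targets a phosphatase to chromatin at the end of mitosis, measured 29.9, 28.2, 29.6, 23.3 and 23.4 CPM in the largest organoids and 48.6, 44.2, 54.9, 50.0 and 66.9 CPM in the smaller ones. Neither gene showed overlap between the classes. In edgeR the differences were log2FC -1.18, SE 0.19, adj. P-value 0.018 for Dlgap5 and log2FC -0.99, SE 0.16, adj. P-value 0.018 for Cdca2.

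The other called genes of the list span the stages of mitosis, and their log2FC ran from -1.18 to -0.52 over all 23. They include the kinetochore genes Cenpe, Cenpf, Bub1 and Ndc80, the spindle motors and spindle proteins Kif11, Kif20b, Hmmr and Tpx2, and the chromosome proteins Top2a, Smc4, Hmgb2 and Cbx5, named here after their values were seen. Cenpe, a kinetochore motor, measured 154, 217, 163, 106 and 135 CPM in the largest organoids and 322, 263, 453, 269.7 and 437 CPM in the smaller ones. Hmmr, a spindle-associated protein, measured 64.6, 67.1, 83.9, 46.8 and 51.3 CPM in the largest organoids and 108, 116, 174, 113 and 127 CPM in the smaller ones. Top2a, the topoisomerase that untangles chromosomes, measured 262, 258, 279.7, 202 and 234 CPM in the largest organoids and 397, 399, 506, 379 and 491 CPM in the smaller ones. None of the 3 overlapped between the classes, and smaller organoid 7 was the highest for each. Cenpe had a log2FC of -1.18, Hmmr of -1.03 and Top2a of -0.81, each with an adj. P-value of 0.0180 in edgeR. Other genes of the list were not called. Cdk1, the kinase that drives entry into mitosis, measured 60.5, 56.9, 52.1, 43.2 and 48.2 CPM in the largest organoids and 45.6, 53.5, 49.1, 48.2 and 49.4 CPM in the smaller ones, with full overlap (log2FC 0.08, adj. P-value 0.740), and Ccnb1, its cyclin partner, had a log2FC of -0.18 (adj. P-value 0.608). The 23 called genes had a median longest transcript of 4,365 bases and the 29 uncalled ones of 3,033 bases.

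Summed over the list, G2 and mitosis transcripts made up 6527, 7365, 6949, 5331 and 4427 CPM of the library in the largest organoids and 8678, 9777, 11534, 10167 and 11212 in the smaller. The classes did not overlap. The lowest sums belonged to largest organoids 15 and 13, which were also among the deepest libraries, and the highest to smaller organoid 7, the shallowest of the 10. Within the depth shared by both classes, organoids 2 and 11 stood at 7365 and 6949 beside smaller organoids 5, 6, 9 and 14 at 8678 to 11212. Organoids 3 and 12, which fall in neither size class, had 1,316,448 and 2,071,961 counts and sums of 9741 and 8386.

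**Figure D1:**
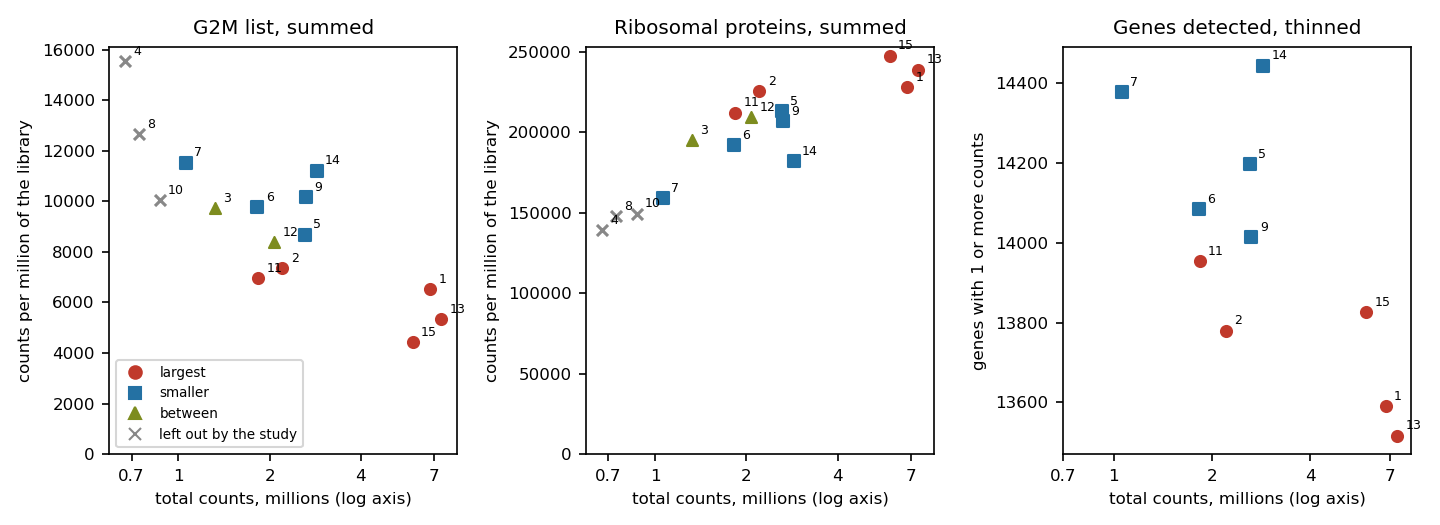
Total counts (log axis) of Set 4 libraries against summed CPM of the G2 and mitosis list (left) and of cytosolic ribosomal proteins (middle), and against genes detected after thinning to a common depth (right, 10 organoids only, vertical axis not from 0). Points are organoids with their numbers, and the largest organoids lie below the smaller ones on the left, at 4427 to 7365 against 8678 to 11534.

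With the log2 total count as a covariate in edgeR, the log2FC of Mki67 was -0.90 (unadjusted P-value 6.71e-05, adj. P-value 0.442), and without the 3 deepest libraries it was -0.82 (unadjusted P-value 0.000745, adj. P-value 0.761). In these fits the list median was -0.42 and -0.35, with 47 and 44 of 52 genes below 0, and edgeR called no gene of the whole table (1,109 and 825 passed at an unadjusted P-value of 0.05, and limma-voom with the covariate called 0 as well). Thinned to 1,059,002 counts each, 17 of the 52 were lower, the median was -0.62 and Mki67 was at -1.03 (adj. P-value 0.0140). List members were called in the main and the thinned fit and in none with depth as a term. They were not called either without the 3 deepest libraries, without largest organoid 13 or without smaller organoid 7, where depth was no term. The cause of these changes was not tested.

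Few genes of S phase were called. Of 42 tested, 2 (4.76%, beside 3.36% of all genes) were lower and none was higher, with a median log2FC of -0.32. At an unadjusted P-value of 0.05 in edgeR, 18 passed, beside 3,311 of all 12,215 genes. Of the list limma-voom called 3 and DESeq2 7, beside 724 and 1,374 of all genes. Casp8ap2, which is needed for processing of replication-dependent histone mRNA, measured 27.7, 34.2, 40.0, 38.4 and 24.2 CPM in the largest organoids and 52.8, 62.4, 85.7, 56.7 and 52.4 CPM in the smaller ones (log2FC -0.91, SE 0.19, adj. P-value 0.0251, edgeR). Usp1, a deubiquitinase of DNA repair at replication forks, was the other called gene (log2FC -0.75). Pcna, the sliding clamp of the replication fork, lay in the other direction and was not called (log2FC 0.29, adj. P-value 0.298). Summed S phase transcripts ran from 1084 to 1968 CPM in the largest and from 1969 to 2948 in the smaller organoids, so that the classes met at the edge.

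Cell cycle scores computed per library with cyclone did not separate the classes. The G2M score was 0.466 ± 0.271 in the largest and 0.515 ± 0.159 in the smaller organoids (SD, n = 5 each, exact permutation P = 0.825), and the G1 score did not either (exact permutation P = 0.929). Largest organoids 1 and 2 and smaller organoids 5 and 14 were assigned to G2M, and the other 6 to G1. Largest organoid 2 therefore had a G2M assignment with a lower summed G2 and mitosis level than the G1-assigned smaller organoids 6, 7 and 9.

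The 5 called genes with the lowest log2FC, at an average log2 CPM of at least 4 and without overlap, included 3 of cell division and chromatin. Cep55 (ENSMUSG00000024989, chr19:38055011-38074423, plus strand), a midbody protein of the last step of cytokinesis, measured 12.5, 18.1, 13.2, 12.0 and 8.26 CPM in the largest organoids and 31.9, 36.4, 41.6, 28.7 and 21.2 CPM in the smaller ones. Sass6, which builds the cartwheel of new centrioles, measured 9.12, 12.0, 12.6, 8.61 and 7.10 CPM in the largest organoids and 22.8, 26.0, 29.1, 16.6 and 22.5 CPM in the smaller ones. Hist1h1e, a linker histone, measured 53.8, 54.6, 74.6, 56.5 and 35.1 CPM in the largest organoids and 134, 172, 168, 106 and 78.7 CPM in the smaller ones. The classes did not overlap for any of the 3, although organoid 14 was the lowest of the smaller class for Cep55 and Hist1h1e. In edgeR the values were log2FC -1.33, SE 0.22, adj. P-value 0.018 for Cep55, log2FC -1.27 for Sass6 and log2FC -1.27 for Hist1h1e. Gm14730, a processed pseudogene (log2FC -1.25), and Rn5s, a 5S rRNA of a multicopy family (log2FC -1.25), complete the 5, and reads of both can belong to near-identical copies.

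**Figure D2:**
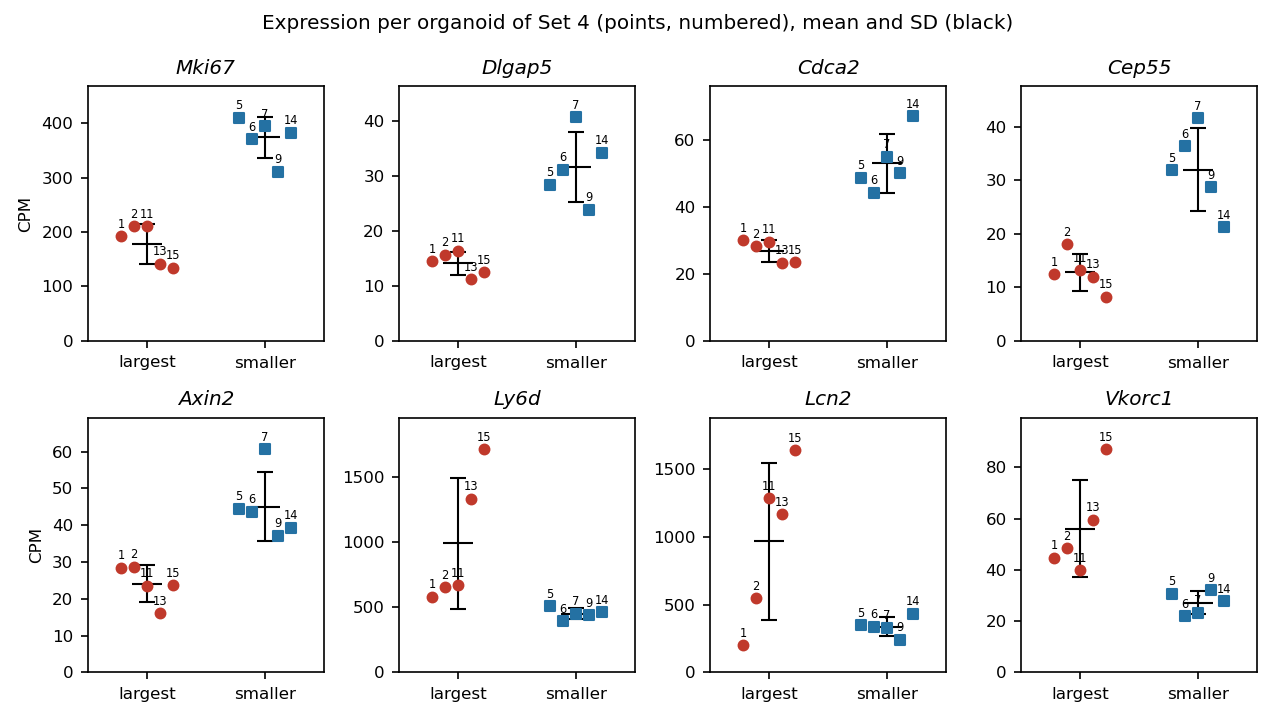
CPM of 8 named genes in each organoid (points, numbered by organoid, vertical axes from 0), with mean and SD in black, n = 5 per class. Mki67, Dlgap5, Cdca2, Cep55 and Axin2 are lower in all 5 largest organoids than in any smaller one, Ly6d and Vkorc1 are higher, and Lcn2 overlaps through largest organoid 1 at 201 CPM.

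Axin2, a negative-feedback target of Wnt signalling, was the only gene called by edgeR among 23 tested of the Wnt and Lgr5 list (4.35% lower, beside 3.36% of all genes, list median -0.35). It measured 28.4, 28.7, 23.6, 16.2 and 23.6 CPM in the largest organoids and 44.4, 43.7, 60.7, 37.2 and 39.3 CPM in the smaller ones, with no overlap (log2FC -0.90, SE 0.19, adj. P-value 0.0254, edgeR). Thinned to equal depth, Axin2 was not called (log2FC -0.73, adj. P-value 0.0781, edgeR). In edgeR its log2FC was -0.66 with depth as a covariate and -0.76 without the 3 deepest libraries (adj. P-values 0.473 and 0.761). Lgr5, the R-spondin receptor used as a stem cell marker, was measured at 0.83 to 7.98 CPM, which is within few counts of the shallowest library, where 1 count equals 0.944 CPM, and a difference was not detectable at this depth (log2FC -0.61, adj. P-value 0.437). The list median was -0.11 both with depth as a covariate and without the 3 deepest libraries.

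Single genes of the mucin, trefoil and antimicrobial list were called higher in the largest organoids. All 20 tested genes of the list had a log2FC above 0 (median 0.67), and edgeR called 3 (15%, beside 1.07% of all genes). Summed, transcripts of the list ran from 13,560 to 20,429 CPM in the largest and from 10,246 to 15,892 in the smaller organoids, with overlap. Thinned to equal depth, edgeR called 1 of 17 tested higher, beside 55 of 11,032 over all genes. Of the list limma-voom called 2 and DESeq2 5, beside 724 and 1,374 of 12,215 over all genes. The median was 0.46 with depth as a covariate, with 1 of 20 genes below 0, and 0.35 without the 3 deepest libraries, with 4 of 20 below 0, and edgeR called none of the list in either fit. Ly6d (ENSMUSG00000034634, chr15:74762056-74763620, minus strand), a lipid-anchored surface protein of the Ly6 family, measured 583, 657, 670.1, 1333 and 1713 CPM in the largest organoids and 507, 394, 450.0, 440.0 and 462 CPM in the smaller ones. All 5 largest organoids exceeded the smaller ones, with organoids 13 and 15 far above the others (log2FC 1.14, SE 0.25, adj. P-value 0.0266, edgeR). Without the 3 deepest libraries, which include 13 and 15, its log2FC was 0.56 (adj. P-value 0.761).

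Tff2, a trefoil peptide that protects mucosal surfaces, measured 11.6, 11.1, 11.0, 22.7 and 48.4 CPM in the largest organoids and 6.08, 5.20, 10.8, 4.41 and 8.40 CPM in the smaller ones. The largest organoids were higher without overlap, but organoid 11 of the largest and organoid 7 of the smaller class lay next to each other (log2FC 1.68, SE 0.41, adj. P-value 0.0363, edgeR). Reg3b, an antimicrobial C-type lectin, measured 0.912, 1.39, 3.29, 37.4 and 15.2 CPM in the largest organoids and 0.760, 0.520, 0, 1.10 and 2.02 CPM in the smaller ones. The mean of Reg3b was set by organoids 13 and 15 and the classes overlapped (log2FC 3.58, SE 0.94, adj. P-value 0.0433, edgeR), and its close paralog Reg3g, where reads may be shared, was likewise highest in these organoids without being called (log2FC 3.05, adj. P-value 0.0681).

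Of the inflammatory genes, 3 of 34 tested in the NF-kB and chemokine list were higher in edgeR (8.82%, beside 1.07% of all genes, median log2FC 0.36) and none was lower. Of this list limma-voom called 2 genes and DESeq2 5, beside 724 and 1,374 of 12,215 over all genes. Lcn2, a siderophore-binding protein induced in inflamed bile ducts, measured 201, 546, 1281, 1164 and 1635 CPM in the largest organoids and 349, 337, 330.2, 240.2 and 432 CPM in the smaller ones. Largest organoid 1 was below every smaller organoid and organoids 11, 13 and 15 were the highest, so the classes overlapped (log2FC 1.51, SE 0.37, adj. P-value 0.036, edgeR). Lcn2 was not called in limma-voom (adj. P-value 0.0766). It kept a log2FC of 1.50 with depth as a covariate and 1.45 without the 3 deepest libraries (adj. P-values 0.458 and 0.346). Ccl20, a chemokine for dendritic cells and lymphocytes, measured 25.5, 36.6, 48.3, 68.6 and 53.6 CPM in the largest organoids and 17.9, 31.7, 20.0, 22.4 and 18.8 CPM in the smaller ones and overlapped through organoid 1 (log2FC 1.08, SE 0.25, adj. P-value 0.0282, edgeR). Cx3cl1, the membrane-bound chemokine fractalkine, was at 13.5 ± 3.28 against 7.79 ± 0.567 CPM (mean ± SD, n = 5 each) without overlap.

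Of 25 tested immediate early genes, 3 were higher in edgeR (12%, beside 1.07% of all genes). Of the 25, 16 had a log2FC above 0 and 9 below 0 (median 0.23). Thinned to equal depth, edgeR called none of them, beside 55 of 11,032 genes higher. With depth as a covariate it called no gene at all. Summed, transcripts of the list ran from 1435 to 1868 CPM in the largest and from 1410 to 2226 in the smaller organoids. Ier3, an early response gene of stress and NF-kB, measured 99.7, 101, 131, 148 and 105 CPM in the largest organoids and 68.8, 85.7, 79.8, 84.2 and 74.3 CPM in the smaller ones, without overlap (log2FC 0.57, SE 0.15, adj. P-value 0.0427, edgeR). Junb and Maff, transcription factors of the AP-1 and small Maf groups, had a log2FC of 0.51 and 0.71. In antigen presentation, 2 of 17 genes tested were higher (11.8%, beside the same 1.07%), namely Psme2, a proteasome activator subunit (log2FC 0.57, adj. P-value 0.0458), and H2-D1, a class I molecule with near-identical relatives (log2FC 0.61). Neither Ier3 nor Psme2 was called in edgeR after thinning (adj. P-values 0.0558 and 0.0641), and no antigen presentation gene was. In the interferon list, Ifi27 was the only one of 46 genes called in edgeR (2.17%, beside 1.07% of all genes, log2FC 0.88), and DESeq2 called 2, beside 1,374 of 12,215 over all genes.

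**Figure D3:**
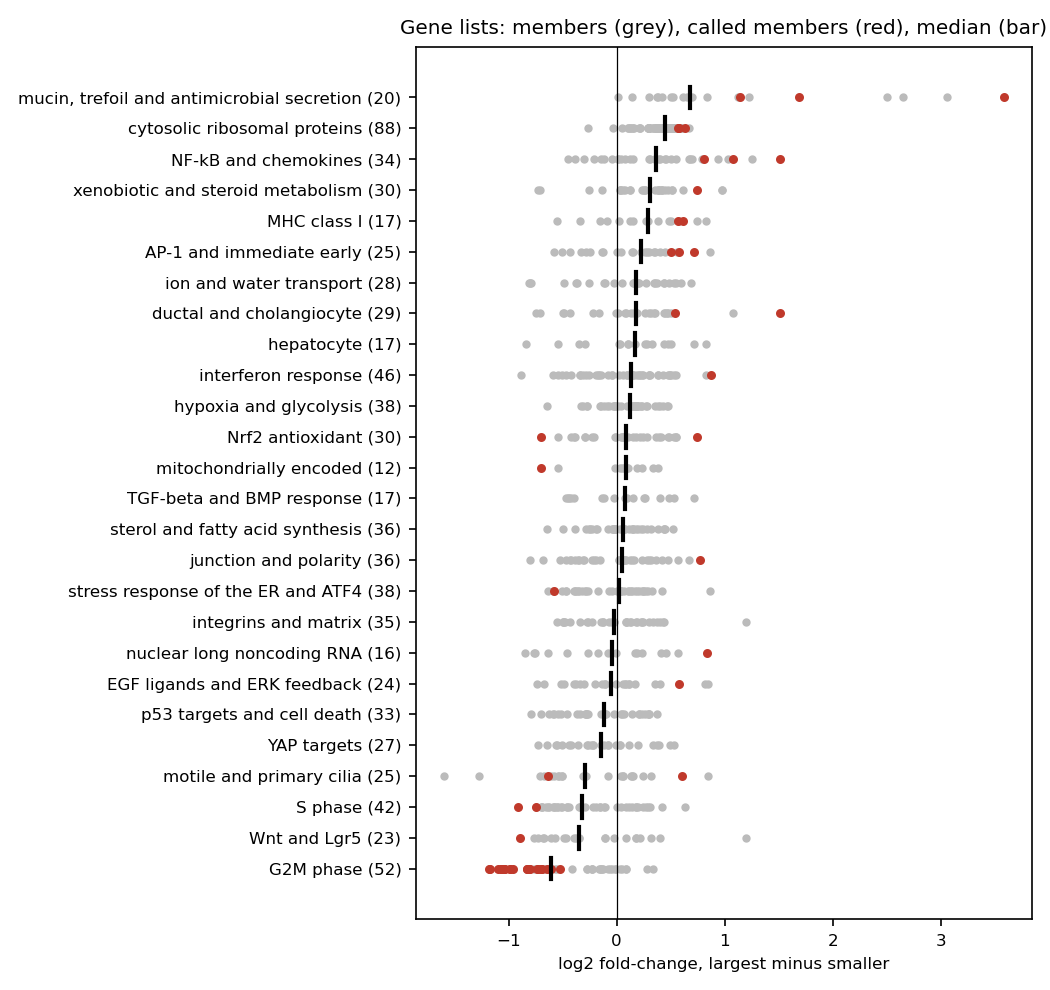
Log2 fold-change (largest minus smaller) of each tested gene of 26 lists, with called genes in red, other genes in grey and the median of the list as a bar; the number tested is in brackets. The G2 and mitosis list lies lowest with a median of -0.61, and the mucin, trefoil and antimicrobial list highest at 0.67.

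Ribosomal protein genes had small differences of the same sign. Of 88 cytosolic ribosomal protein genes, 86 had a log2FC above 0 (median 0.45) and 29 did not overlap, where 2.93% of all genes were higher without overlap. In edgeR 3 were called higher (3.41%, beside 1.07% of all genes), and 68 passed at an unadjusted P-value of 0.05, beside 3,311 of all 12,215 genes. Of the list limma-voom called 16 and DESeq2 50, beside 724 and 1,374 of all genes. Rps27, of the small subunit, measured 2424, 2659, 2394, 3213 and 3755 CPM in the largest organoids and 2059.9, 1794, 1519, 2045 and 1929 CPM in the smaller ones (log2FC 0.63, SE 0.16, adj. P-value 0.0396, edgeR), and Rpl39 and Rpl11, of the large subunit, had a log2FC of 0.57 and 0.56. Reads of these genes may be divided with their processed pseudogenes. Summed, ribosomal protein transcripts ran from 212,317 to 247,627 CPM in the largest and from 159,305 to 213,349 in the smaller organoids, and the classes overlapped through largest organoid 11 and smaller organoid 5. The median was 0.25 with depth as a covariate and 0.28 without the 3 deepest libraries. Zfas1, a noncoding host gene of small nucleolar RNAs with a ribosome-like expression pattern in many cells, had a log2FC of 0.84 (adj. P-value 0.0396, edgeR).

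**Figure D4:**
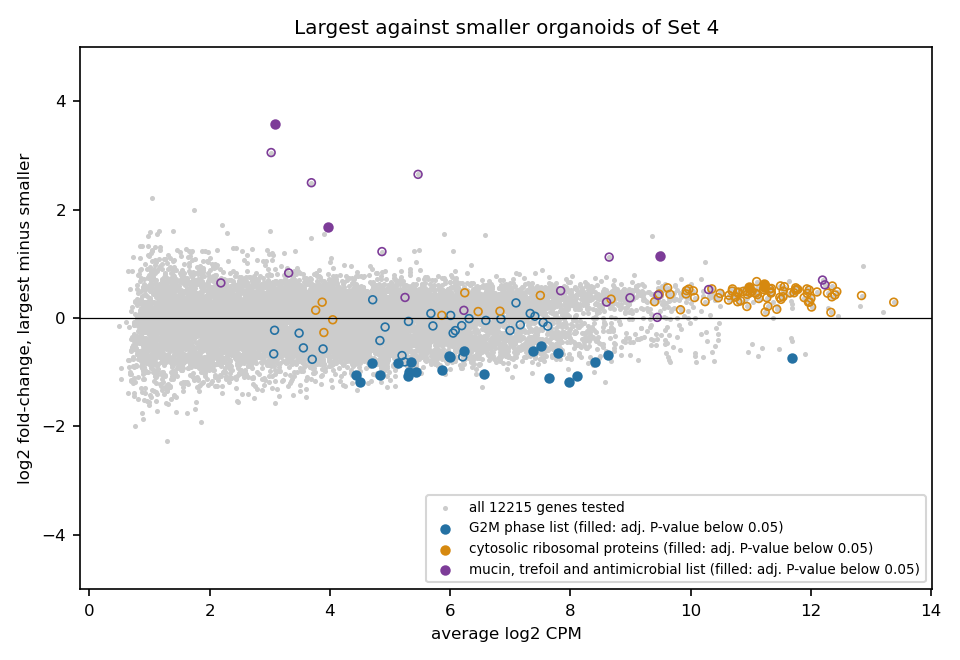
Average log2 CPM against log2 fold-change (largest minus smaller) for 12,215 genes, with 3 gene lists in colour and called genes filled. Of the ribosomal protein genes 86 of 88 lie above 0, most at high abundance, and of the G2 and mitosis genes 46 of 52 lie below 0.

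The called genes of either direction had different median transcript lengths, which were not tested. The median longest annotated transcript was 4,536.5 bases for the 410 genes lower in the largest organoids, 1,219 bases for the 131 higher genes and 3,059 bases for all tested. Genes with a transcript longer than that median took 21.1, 22.1, 25.2, 20.9 and 19.7% of counts in the largest organoids and 24.7, 27.3, 32.1, 25.2 and 28.2% in the smaller ones. Only largest organoid 11 entered the range of the smaller class, and the part of transcript length in the gene differences was not tested. Actb, to which the input was adjusted, measured 1802, 2429.8, 4005, 2071 and 1088 CPM in the largest organoids and 2772, 3998, 4176, 2838 and 3064 CPM in the smaller ones (log2FC -0.56, adj. P-value 0.163).

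By the same limits, the 5 called genes with the highest log2FC had varied functions. They were Ly6d, Vkorc1, which recycles vitamin K, Gm12967, a processed pseudogene, Selenbp1, a methanethiol oxidase, and Rac3. Vkorc1 measured 44.8, 48.6, 40.0, 59.7 and 87.2 CPM in the largest organoids and 30.8, 21.8, 23.3, 32.0 and 27.9 CPM in the smaller ones (log2FC 1.04, SE 0.21, adj. P-value 0.0248, edgeR). Selenbp1 and Rac3 had a log2FC of 0.90 and 0.89, and Gm12967 of 1.04. None of these genes overlapped between the classes, and largest organoid 15 was the highest for each.

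Metabolic and barrier genes gave single calls. Mgst1, a microsomal glutathione transferase and member of both the xenobiotic and the Nrf2 list, measured 372, 407, 331, 437 and 577 CPM in the largest organoids and 228, 206, 253, 302 and 283 CPM in the smaller ones (log2FC 0.74, SE 0.17, adj. P-value 0.0266, edgeR), and was 1 of 30 genes called in either list in that direction (3.33%, beside 1.07% of all genes) by edgeR. Sod1, the cytosolic superoxide dismutase of the Nrf2 list, was lower, at 1701 ± 277 against 2757 ± 485 CPM (mean ± SD, n = 5 each), with a log2FC of -0.70 and an adj. P-value of 0.0297 in edgeR. F11r, the junctional adhesion molecule A, measured 141, 136, 105, 168 and 128 CPM in the largest organoids and 77.1, 83.7, 75.7, 90.1 and 72.3 CPM in the smaller ones (log2FC 0.77, SE 0.15, adj. P-value 0.0225, edgeR). It was the only call of edgeR among 36 junction and polarity genes (2.78%, beside 1.07% of all genes higher), of which DESeq2 called 4, beside 1,374 of 12,215 over all genes. Hsp90b1, an endoplasmic reticulum chaperone, was lower, at 724 ± 58.1 against 1082 ± 113 CPM (mean ± SD, n = 5 each), with a log2FC of -0.58. It was the only call of edgeR and of limma-voom among 38 genes of its stress list (2.63%, beside 3.36% of all genes lower in edgeR), of which DESeq2 called 4, beside the same 1,374. Ift74 and Ift22, subunits of the same ciliary transport complex, were called in opposite directions (log2FC -0.63 and 0.60).

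The markers of the study for cell identity were not called in edgeR. Sox9, a transcription factor of the biliary lineage, measured 86.5, 101, 99.8, 58.5 and 73.9 CPM in the largest organoids and 93.1, 80.0, 195, 118 and 213 CPM in the smaller ones, with overlap (log2FC -0.74, adj. P-value 0.0766). It was below 0.05 in DESeq2 (adj. P-value 0.0343), in edgeR with no filter (0.0042) and in edgeR without largest organoid 11 (0.0489), but not in limma-voom (0.0971). Epcam, an epithelial adhesion molecule, had a log2FC of -0.44 (adj. P-value 0.102 in edgeR, 0.105 in limma-voom and 0.0498 in DESeq2) and Notch2, a receptor of biliary specification, of -0.48 (adj. P-value 0.338). The hepatocyte-associated genes Hnf4a and Fah had a log2FC of 0.10 and 0.02, with SEs of 0.19 and 0.27. Of 29 tested ductal genes, edgeR called Lcn2 and Tspan8 higher (6.90%, beside 1.07% of all genes). There limma-voom called 1 gene and DESeq2 7, beside 724 and 1,374 of all 12,215 genes. Of 17 hepatocyte genes none was called in edgeR, limma-voom or DESeq2. At an unadjusted P-value of 0.05 in edgeR 2 of them passed, beside 3,311 of all 12,215 genes. No gene of the YAP target and p53 lists was called by these 3 tools either, with 5 of 27 and 7 of 33 at an unadjusted P-value of 0.05, beside the same 3,311. In the lists of sterol synthesis, ion transport, integrins and matrix, hypoxia and TGF-beta, edgeR called none. There DESeq2 called 3 of 36, 3 of 28, 1 of 35, 3 of 38 and 1 of 17 tested, beside 1,374 of 12,215 over all genes.

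No whole-transcriptome measure passed after adjustment over the 8 compared. On the first principal component (28.4% of variance) the largest organoids 1, 2, 11, 13 and 15 scored 35.0, 24.9, -13.4, 25.5 and 41.0, and the smaller 5, 6, 7, 9 and 14 scored -7.09, -22.4, -59.3, -6.62 and -17.6. The sign of a component is arbitrary and was set so that the largest class had the higher mean. All but largest organoid 11 fell on the side of their class (exact permutation P = 0.0238, adjusted over 8 measures 0.190). Without smaller organoid 7 the P was 0.0556, and with the 500 most variable genes it was 0.936, both by exact permutation. The second component did not separate them (exact permutation P = 1), nor did the distance of organoids to their class mean, a measure of spread, which was 0.540 ± 0.093 in the largest and 0.575 ± 0.055 in the smaller (exact permutation P = 0.468).

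Fewer genes were detected in the largest organoids in a single random thinning to equal depth, by a P-value that was not adjusted with the 8 measures. As deposited, 16,731 ± 1,379 genes had a count in the largest and 15,702 ± 886 in the smaller organoids (SD, n = 5 each, exact permutation P = 0.183). After thinning to 1,059,002 counts, the numbers were 13,734 ± 178 and 14,224 ± 185, without overlap (13,517 to 13,955 against 14,014 to 14,445, exact permutation P = 0.00794, the smallest possible). The mitochondrial share of counts was 2.80 ± 0.51% against 3.26 ± 0.43% (exact permutation P = 0.167). Of 12 tested mitochondrially encoded genes 1, mt-Nd4l of complex I, was called lower (8.33%, beside 3.36% of all genes, log2FC -0.70, adj. P-value 0.0494, edgeR), where DESeq2 called 2, beside 1,374 of 12,215 over all genes.

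The number of called genes depended on single organoids. It was 35, 5, 1,802, 0 and 92 without largest organoid 1, 2, 11, 13 or 15, and 464, 135, 0, 258 and 93 without smaller organoid 5, 6, 7, 9 or 14. Without organoid 13, the G2 and mitosis median was -0.54, and without organoid 7 it was -0.56.

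**Figure D5:**
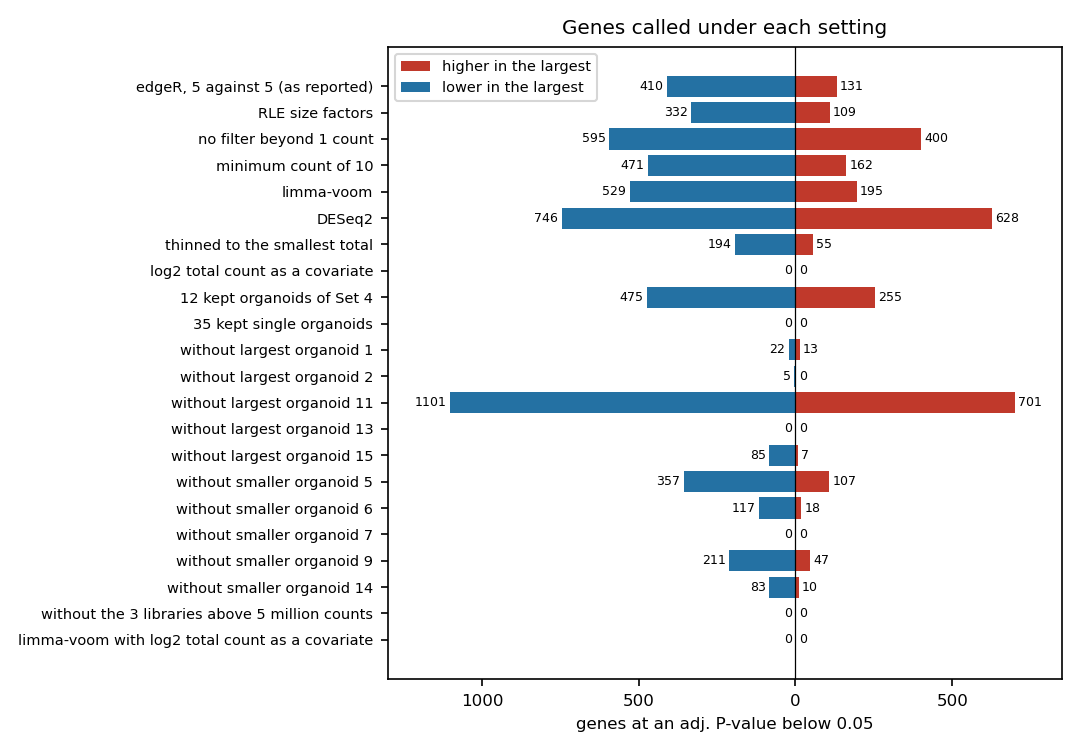
Number of genes at an adj. P-value below 0.05 (horizontal axis) that were higher (red, to the right) or lower (blue, to the left) in the largest organoids, for each setting named on the vertical axis. The count as reported is 410 lower and 131 higher, and it is 0 with log2 total count as a covariate, without largest organoid 13 and without smaller organoid 7.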

How the data were processed

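Single-organoid 3′-end libraries with unique molecular identifiers were mapped by the authors with zUMIs and STAR to mm10 and counted per Ensembl gene with featureCounts (with SAMtools 1.9 and R 3.6.3 in the submitters' processing notes). The deposited table holds raw counts per gene, made after a down-sampling of libraries in zUMIs, and the sources say neither to what depth nor whether these are UMIs or reads. Members and gene lists were chosen with earlier results of these data known. The 10 libraries (1,059,002 to 7,383,116 counts, all 45 pairs differing beyond sampling noise) were tested in R 4.3.3 with edgeR 4.0.16, using TMM scaling, filterByExpr with a minimum count of 3, the quasi-likelihood test and Benjamini-Hochberg adjustment over all genes at 0.05. CPM of single genes were TMM-scaled, whereas sums over lists and the values of the cell type markers are CPM of the library. In simulated data of this comparison (11,972 genes per run), 59.1% of genes changed by 1 and 95.2% of those changed by 2 on the log2 scale were recovered. Simulated counts were drawn independently for each gene and organoid. They held no variation shared by the genes of an organoid, so these shares may not carry over to the real libraries. Measures per library were compared by two-sided exact permutation tests, with cell cycle scores from scran 1.30.0. Named genes were the 5 called genes of largest change each way (average log2 CPM from 4 upwards, no overlap), the called gene of smallest P-value per list (3 where 5 or more were called) and markers of the study, of which 1 is not reported here. Positions and lengths are from GENCODE M21 (GRCm38), which is another release than the authors' annotation. Alternatives were RLE factors, no filter, a minimum count of 10, limma-voom (limma 3.58.1), DESeq2 1.42.0, thinning, log2 total count as a covariate, the 12 kept organoids of Set 4, all 35 kept single organoids, and leaving out each organoid. Leaving out the 3 deepest libraries and limma-voom with the covariate were chosen after seeing the data. The 2 other tables of the series were not used.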

Additional observations from a re-analysis of the deposited data

Results flagged for a closer look

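In 2 of 86 groups of 5 organoids examined, a single organoid lay apart from the other 4 by more than Dixon's test allows. Chance alone flags about 1 in 20 such groups. The mitochondrial share of counts in largest organoid 11 was 3.67%, where the next largest organoid had 2.75% and the lowest 2.42%. Zfas1, the small nucleolar RNA host gene, was at 289 CPM in largest organoid 15, where the next had 159 CPM and the lowest 112 CPM. Explanations were not tested.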

How the results depend on the processing

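The 541 called genes became 995 with no filter (400 higher and 595 lower in the largest), 1,374 with DESeq2 (628 and 746, with 486 of the 541 among them) and 249 after thinning (55 and 194, with 221 of the 541). None was called in edgeR with log2 total count as a covariate, in edgeR with all 35 kept single organoids, in edgeR without the 3 deepest libraries or in limma-voom with the covariate, where 0 genes stood beside 1,109, 2,060, 825 and 996 at an unadjusted P-value of 0.05. The count was 441 with RLE factors, 633 with a minimum count of 10, 724 with limma-voom and 730 with the 12 kept organoids of Set 4. Leaving out 1 organoid gave 0 to 1,802 genes, with 0 in edgeR without largest organoid 13 or without smaller organoid 7 (2,721 and 2,526 at an unadjusted P-value of 0.05). Each of the 541 that could be tested kept its direction in all of these fits. They were selected with libraries that these fits share, so this was close to fixed in advance and is no separate support. The causes of these changes were not tested.

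Genes detected turned from more to fewer in the largest organoids after thinning (a difference of -490.4 genes). Leaving out 1 organoid moved the difference in total counts between 1,995,940 and 3,383,780 (exact permutation P = 0.0397 without largest organoid 2 and 0.0317 without largest organoid 11), that in mitochondrial share between -0.684 and -0.287 percentage points (exact permutation P = 0.0159 without largest organoid 11) and that in the first component between 38.0 and 55.4. With the 500 most variable genes the difference in the first component was 0.977. In every fit the sign of the component was set towards the largest class, so its differences could not be negative. Medians of the YAP target, integrin and matrix, p53 and EGF lists changed sign with log2 total count as a covariate, to 0.12, 0.13, 0.09 and 0.09, and those of the ion transport, endoplasmic reticulum stress and noncoding RNA lists to -0.01, -0.03 and 0.02. No paired analysis was possible because the 2 classes share no organoid numbers. In the shallowest library 1 count equals 0.944 CPM, which limits what can be compared for genes at that level.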

Other observations

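Organoids 3 and 12 of Set 4 fell in neither size class, and organoids 4, 8 and 10 were left out by the study. None of them entered the fit of the 541 called genes. Of the 410 genes lower in the largest organoids, the level in organoid 3 was nearer to the mean of the largest class for 6.59%, and that in organoid 12 for 21%. For the organoids left out, which had 666,660, 738,392 and 867,528 counts, the shares were 2.68%, 4.15% and 10.2%. Of the 131 genes higher in the largest, organoid 12 was nearer to the largest mean for 35.1% and organoid 3 for 8.4%. With scaling over all 15 libraries of Set 4, organoid 12 had 1531 CPM of Lcn2, beside 1281, 1164 and 1635 CPM in largest organoids 11, 13 and 15, while its Mki67 level of 279 CPM lay between the classes. Organoid 3 had 248.5 CPM of Lcn2, near the lowest smaller organoid at 240.2 CPM, and 378 CPM of Mki67, within the range of the smaller class. The class values were scaled over the 10 libraries only, so these comparisons are approximate.

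Of the organoids left out, 4 had the highest summed G2 and mitosis level of Set 4, at 15546 CPM of the library, and the lowest ribosomal protein sum, at 139,030. Organoids 8 and 10 stood at 12668 and 10032, and at 147,984 and 149,473. These 3 libraries were the shallowest of Set 4. A fit with log2 total count alone, without size class, called 1,331 genes over the 10 organoids, and beside size class the same term called 0 in edgeR and in limma-voom, with 1,523 and 1,445 genes at an unadjusted P-value below 0.05.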
